A study of Mus musculus with 3 samples.

Results

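Itga1, Itga2, Itga10, Itga11, Ddr1 and Ddr2, the genes of the collagen-binding integrins and of the discoidin domain receptors, were examined in bone-lining cells, the cells that coat the surface of bone. They were found by symbol in the gene lists of the count tables, and each of the 6 symbols matched 1 of the 32285 genes. The cells came from WT mice (aged 6 to 12 weeks in the study), with no treatment and no second group: collagenase freed them from the bone surface of femora, tibias and iliac bones, and CD45- Ter119- CD31- Sca-1- Alcam+ cells were sorted and sequenced as 3 droplet libraries (replicates 1, 2 and 3). The labels do not say how many animals went into a library, so the spread between libraries may be partly technical. After removal of poor barcodes and likely doublets, 2476, 6363 and 9393 cells remained, with medians of 5614, 9704 and 5814 unique molecular identifiers (UMIs, one per captured transcript) per cell.

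Integrins are paired receptors of an alpha and a beta subunit that tie the cytoskeleton to the matrix outside the cell. The alpha subunits alpha1, alpha2, alpha10 and alpha11 all pair with beta1 (Itgb1) and bind triple-helical collagen. Alpha1 is known for binding the network collagen IV, alpha10 for collagen II in cartilage and alpha11 for collagen I in tendon, periodontal ligament and other fibrous tissue. DDR1 and DDR2 are receptor tyrosine kinases that collagen itself activates; DDR1 is best known from epithelia, and DDR2 from mesenchymal cells and the growth plate, where its loss gives short limbs.

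Cells were assigned to lineages by marker genes that include none of the 6 receptors and no collagen. A cell was assigned if it had UMIs of at least 3 of the 8 markers of a lineage and of at least 2 more than of any other lineage, and "-like" below means no more than that. 16367 of the 18232 cells could be assigned. Chondrocyte-like cells (markers such as Acan and Sox9) were the main population with 569, 5500 and 8027 cells in replicates 1, 2 and 3, and CAR-like cells (Cxcl12-abundant reticular cells, with Lepr and Adipoq) numbered 626, 73 and 102. Osteoblast-like cells (Bglap, Dmp1, Sp7) numbered 31, 121 and 200, and tendon-like cells (Scx, Tnmd, Mkx) 63, 30 and 33. Replicate 1 stood apart in make-up, since CAR-like and not chondrocyte-like cells led it. Every lineage had UMIs of all 8 of its own markers, although the osteoblast marker Mepe reached at most 11.8 CPM (counts per 1e6 UMIs). Of the 352 osteoblast-like cells, 186 lay at the limit of the marker rule, as did 57 of the 126 tendon-like cells. Cells that the sort should have removed were present too: 504 leukocyte-like cells, with Ptprc (CD45) at 98.2 to 171.8 CPM, 269 erythroid-like cells and 13 endothelial-like cells.

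Itga1 and Itga2 are neighbours on the minus strand of mouse chromosome 13 (build GRCm38), at chr13:114953096-115101964 and chr13:114833081-114932100, 20995 bases apart. Itga10 lies at chr3:96645584-96664519 and Itga11 at chr9:62677826-62783982, both on the plus strand. Ddr1 lies at chr17:35681567-35704621 and Ddr2 at chr1:169972307-170110762, both on the minus strand. Annotated antisense genes share exonic bases with Ddr1 (Gm4577) and with Ddr2 (3110045C21Rik). Pelo lies on the same strand inside Itga1 without exon overlap. The protein-coding genes Gm49395 and Gm42957 share exonic bases on the same strand with Itga1 and Itga10, but neither is among the genes counted. The 250 bases upstream of the RefSeq start (GRCm38.p6) are shown for Itga1 and Itga10, because their levels ran in opposite order over the main lineages. Capitals mark CG dinucleotides.
Itga1, chr13:115101965-115102214, minus strand: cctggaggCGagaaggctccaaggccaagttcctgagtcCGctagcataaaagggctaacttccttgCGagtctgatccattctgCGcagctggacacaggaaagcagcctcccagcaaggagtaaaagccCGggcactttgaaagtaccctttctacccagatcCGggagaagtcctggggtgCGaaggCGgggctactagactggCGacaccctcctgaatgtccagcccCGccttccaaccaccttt
Itga10, chr3:96645334-96645583, plus strand: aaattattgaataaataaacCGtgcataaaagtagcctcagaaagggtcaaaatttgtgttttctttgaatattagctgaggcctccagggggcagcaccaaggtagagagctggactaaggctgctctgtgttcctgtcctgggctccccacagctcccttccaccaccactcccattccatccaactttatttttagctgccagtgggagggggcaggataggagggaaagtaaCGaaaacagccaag
The Itga1 window had 57.6% G and C with 10 CG dinucleotides, and the Itga10 window 48% with 2, beside medians of 52.4% and 6 over 32851 such windows. Itga11 had 68.4% with 12, Itga2 60.8% with 12, and Ddr2 37.6% with 1. The Ddr2 window (chr1:170088945-170089194) lies inside the span given above for Ddr2, not upstream of it, and some Ddr1 windows also lie inside their gene. Searched on both strands, the RUNX core TGTGGT, the GC box GGGCGG, the TATA box TATAAA and the SOX core ACAAAG were in none of the windows of the 4 integrin genes. The Ddr2 window held 1 TATA box, and of the 4 windows listed for Ddr1, 3 held the GC box and 1 held the SOX core. Over all windows these letters occurred in 14.0%, 32.7%, 12.4% and 16.5%, in the order named.

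Over all cells 4361 UMIs of Itga1, 732 of Itga2, 9390 of Itga10, 1697 of Itga11, 2601 of Ddr1 and 23508 of Ddr2 were counted. A receptor's transcripts lay where its cells were, and so differed between libraries. Chondrocyte-like cells held 95.5% and 94.9% of the Ddr2 UMIs of replicates 2 and 3 but 24.9% in replicate 1, where CAR-like cells held 49.6%. Those shares therefore depend on the make-up of each library as well as on the level in each lineage, and levels below are given per lineage and library.

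**Figure D1:**
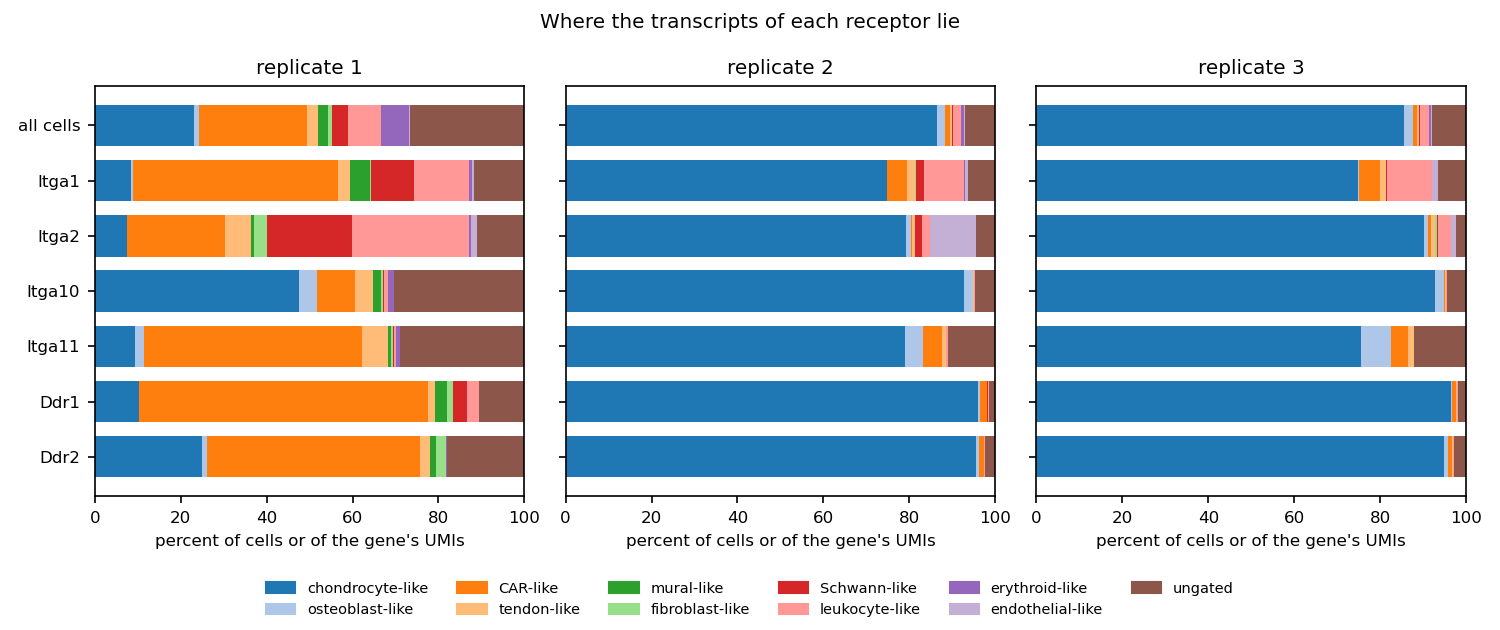
Share of the cells of each library (top bar) and of each receptor's UMIs (other bars) by lineage, in percent, 1 panel per replicate. Chondrocyte-like cells made up 23.0% of the cells in replicate 1 and 86.4% and 85.5% in replicates 2 and 3, and in replicate 1 CAR-like cells held 67.3% of the Ddr1 UMIs.

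Levels are in CPM, the UMIs of a gene scaled to the UMIs of all cells of a lineage in one library, for sums of at least 20 cells. Itga1 codes for the collagen IV-preferring subunit. In CAR-like cells it stood at 185, 177 and 161 CPM in replicates 1, 2 and 3, and in tendon-like cells at 105, 136 and 111 CPM. In chondrocyte-like cells it stood at 30.9, 19.4 and 17.0 CPM. Osteoblast-like cells had 29.5, 0 and 3.81 CPM, which rested on 7 UMIs, 4 of them in 1 cell. The CAR-like libraries were thus all above the tendon-like ones, and both were above every chondrocyte-like and osteoblast-like library. In lineages that reached 20 cells in replicate 1 alone, Itga1 stood at 638 CPM in Schwann-like cells (95% Poisson interval 539 to 750; intervals cover counting error only) and at 215 CPM (166 to 273) in mural-like cells. The 16 and 9 Schwann-like cells of replicates 2 and 3 were too few for the rule and gave 532 and 334 CPM, from 35 and 4 UMIs. Leukocyte-like cells had 44.8, 70.8 and 60.1 CPM, with up to 23 UMIs in a single cell. The 2, 7 and 4 endothelial-like cells, also too few for the rule, gave 469, 259 and 353 CPM of Itga1 from 9, 15 and 16 UMIs, and 104, 519 and 66.2 CPM of Itga2 from 2, 30 and 3 UMIs. Erythroid-like cells had at most 2.06 CPM of Itga1. The order of means was Schwann-like, mural-like, CAR-like, tendon-like, leukocyte-like, chondrocyte-like, fibroblast-like, osteoblast-like and erythroid-like, and the libraries overlapped between neighbours from fibroblast-like cells down.

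Itga2, the alpha2 subunit known from platelets and epithelia, was scarce in bone-lining lineages. Tendon-like cells had 24.5, 9.05 and 19.5 CPM, from 15 UMIs in all. CAR-like, osteoblast-like and chondrocyte-like cells had means of 5.85, 3.42 and 3.76 CPM, and their libraries overlapped. Of the lineages with at least 20 cells in a library, Schwann-like cells again had the highest level, 140 CPM (95.6 to 197) in replicate 1, followed by fibroblast-like cells with 35.3 CPM (11.5 to 82.5) from 5 UMIs.

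Itga10, the cartilage integrin subunit, was highest in osteoblast-like cells, with 118, 144 and 172 CPM. Chondrocyte-like cells had 57.7, 66.0 and 73.0 CPM and tendon-like cells 49.1, 49.8 and 71.6 CPM. CAR-like cells had 11.6, 4.47 and 18.8 CPM. The osteoblast-like libraries were above all others, chondrocyte-like and tendon-like libraries overlapped, and CAR-like libraries were below all 3 of these lineages. Leukocyte-like and erythroid-like cells, which should lack the gene, had at most 1.80 and 4.81 CPM.

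Itga11, the fibrous-tissue subunit, was shared by 3 lineages. CAR-like cells had 70.7, 58.1 and 64.4 CPM, osteoblast-like cells 64.9, 39.4 and 74.3 CPM and tendon-like cells 76.0, 27.2 and 45.6 CPM. Chondrocyte-like cells had 12.1, 7.32 and 8.02 CPM. The first 3 lineages overlapped one another and were all above the chondrocyte-like libraries. Fibroblast-like cells (21.2 CPM from 3 UMIs) and mural-like cells (9.77 CPM from 3 UMIs) gave values that so few UMIs leave uncertain.

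Ddr1 was highest in CAR-like cells, at 58.1, 47.0 and 26.9 CPM. Chondrocyte-like cells had 8.35, 19.7 and 16.8 CPM, tendon-like cells 12.3, 4.53 and 13.0 CPM from 8 UMIs, and osteoblast-like cells 0, 9.09 and 3.81 CPM, also from 8 UMIs. The CAR-like libraries were above the other 3 lineages, which overlapped. Schwann-like cells had 43.7 CPM (21.0 to 80.4) in replicate 1, within the range of the CAR-like libraries.

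Ddr2 was spread over all the mesenchymal lineages. CAR-like cells had 330, 255 and 277 CPM, chondrocyte-like cells 156, 170 and 165 CPM and osteoblast-like cells 165, 141 and 164 CPM. Tendon-like cells had 147, 54.3 and 111 CPM. CAR-like libraries were highest of these 4 lineages, chondrocyte-like and osteoblast-like libraries overlapped, and tendon-like libraries 2 and 3 were below both. In replicate 1, fibroblast-like cells had 396 CPM (299 to 514), with 27 of the 56 UMIs in 1 cell, and mural-like cells 114 CPM (79.4 to 158). Schwann-like cells had no Ddr2 UMI in any library, and in replicate 1 a count of 0 allows up to 13.1 CPM (3 UMIs of the total). Leukocyte-like and erythroid-like cells had at most 3.61 and 3.21 CPM.

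**Figure D2:**
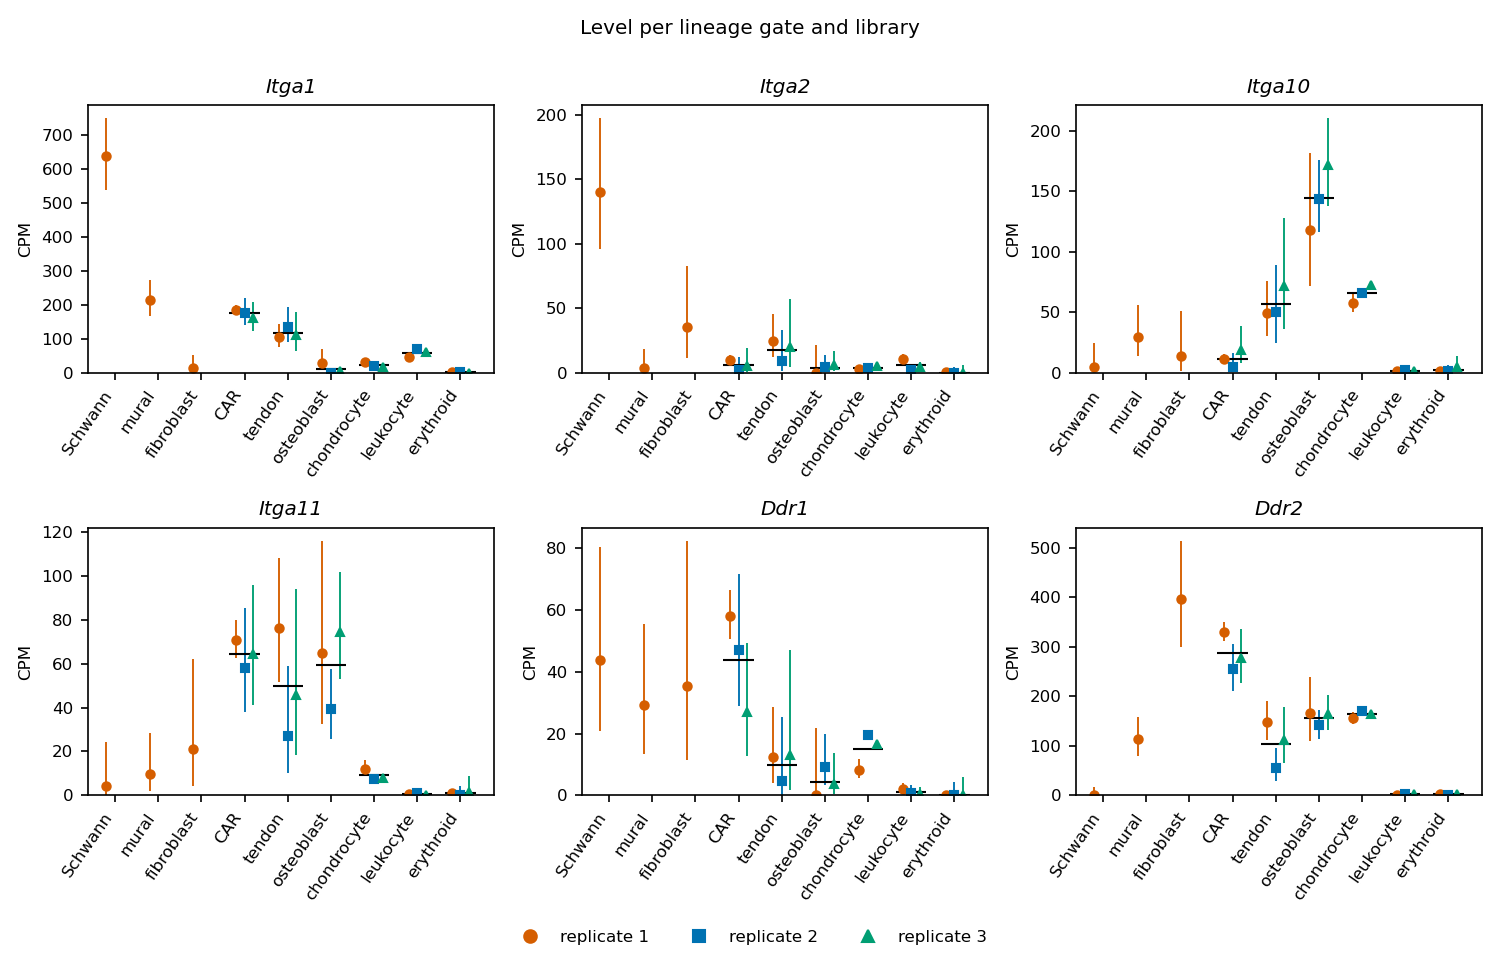
CPM of each receptor (vertical axis, linear) in each lineage with at least 20 cells, 1 point per library with its 95% Poisson interval; the black line is the mean where there is more than 1 library. Itga10 is highest in osteoblast-like cells (118 to 172 CPM) and low in CAR-like cells (4.47 to 18.8 CPM), and Itga1 has the opposite order (0 to 29.5 against 161 to 185 CPM).

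Per cell, depth sets how often a transcript is seen. Each cell with at least 2000 UMIs was therefore also thinned to 2000 UMIs, and shallower cells were left out of the thinned shares. In replicate 3 that kept 104 of the 200 osteoblast-like cells. Ddr2 was then seen in 41.3% ± 3.91 of CAR-like cells, 31.3% ± 3.01 of osteoblast-like, 25.5% ± 0.902 of chondrocyte-like and 15.8% ± 7.72 of tendon-like cells (SD, n = 3), and in no erythroid-like cell. Without thinning, over all cells of these lineages, the shares were 62.4%, 41.9%, 55.2% and 43.3%. Itga10 was seen in 25.1% ± 7.44 of thinned osteoblast-like cells and 2.02% ± 1.78 of CAR-like cells. In the same thinned cells, at least 2 different receptors were seen in 15.7% to 25.2% of CAR-like cells, 13.3% to 16.3% of osteoblast-like cells, 5.86% to 6.98% of chondrocyte-like cells and 3.33% to 21.3% of tendon-like cells. No leukocyte-like or erythroid-like cell had 2.

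Whether the lineages differ in these receptors was tested on sums per lineage and library. edgeR's quasi-likelihood test was used with the library as a block and Benjamini-Hochberg adjustment over all genes tested. Its fold changes are scaled by TMM, which corrects for the share of a library taken by a few abundant genes, so they are not plain ratios of CPM. Without that scaling the median of all genes moved by 0.44 to 0.58 on the log2 scale in 4 of the 6 lineage comparisons, towards the first-named lineage. Rose and fell are used for genes past an adjusted p of 0.05, and each such p below is from this test. Because the comparisons share lineages, they are not independent of one another.

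Tendon-like cells were compared with CAR-like cells. Itga10 rose by 2.15 ± 0.36 (log2 fold change ± SE, adjusted p = 0.000285). Ddr2 fell by 1.48 ± 0.39 (adjusted p = 0.0127) and Ddr1 fell by 2.24 ± 0.67 (adjusted p = 0.0281). Of all 12527 genes tested, 6.97% rose and 9.24% fell, beside 1 and 2 of the 6 receptors. The Itga10 call remained whichever library was left out, but both discoidin receptor calls were lost without replicate 2 (Ddr1 -1.91, adjusted p = 0.218; Ddr2 -1.25, adjusted p = 0.165) and without replicate 3 (Ddr1 -2.50, adjusted p = 0.0634; Ddr2 -1.49, adjusted p = 0.128). Itga1, Itga2 and Itga11 had log2 fold changes of -0.63, 1.41 and -0.39 that did not pass.

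Against osteoblast-like cells, Itga1 and Itga10 went in opposite directions. Tendon-like cells had Itga1 higher by 3.88 ± 0.57 (adjusted p = 8.26e-05) and Itga10 lower, by -1.81 ± 0.30 (adjusted p = 0.000276), where 8.21% of genes rose and 7.5% fell. CAR-like cells had Itga1 higher by 4.51 ± 0.53 (adjusted p = 4.14e-06) and Itga10 lower, by -3.95 ± 0.32 (adjusted p = 4.35e-08), and Ddr1 rose by 2.57 ± 0.67 (adjusted p = 0.0108), where 12.5% of genes rose and 8.98% fell. The Ddr1 call was lost without replicate 2 (3.59, adjusted p = 0.0537) and without replicate 3 (2.54, adjusted p = 0.0641). Each Itga1 value against osteoblast-like cells rests on their 7 Itga1 UMIs, and over the alternatives it ran from 2.84 (without replicate 2) to 5.601 (without replicate 1) in tendon-like cells. In CAR-like cells it ran from 3.59 (without replicate 2) to 6.24 (at least 4 markers per cell), and it was 6.10 without replicate 1. Itga2 and Itga11 passed in neither comparison. Ddr2 had a log2 fold change of -0.98 in tendon-like cells (adjusted p = 0.121) and passed there with DESeq2 (-1.02, adjusted p = 0.0379), with no low-count filter (-0.94, adjusted p = 0.0428) and without replicate 1 (-1.56, adjusted p = 0.000222).

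Against chondrocyte-like cells, Itga1 and Itga11 rose in tendon-like cells by 1.83 ± 0.36 (adjusted p = 0.00092) and 1.91 ± 0.37 (adjusted p = 0.00086). They rose in CAR-like cells by 2.47 ± 0.33 (adjusted p = 7.3e-06) and 2.30 ± 0.31 (adjusted p = 1.07e-05). In osteoblast-like cells Itga11 rose by 2.60 ± 0.33 (adjusted p = 8.0e-06), while Itga1 fell by 2.04 ± 0.59 (adjusted p = 0.0115). Itga10 fell by 2.94 ± 0.30 in CAR-like cells (adjusted p = 2.8e-07), rose by 1.01 ± 0.24 in osteoblast-like cells (adjusted p = 0.00338) and had a log2 fold change of -0.80 in tendon-like cells (adjusted p = 0.0504). In tendon-like cells it passed with at least 4 markers per cell (-0.79, adjusted p = 0.0447). The osteoblast-like calls of Itga1 and Itga10 were lost without replicate 2 (-1.31, adjusted p = 0.154; 0.81, adjusted p = 0.124) and without replicate 3 (-1.86, adjusted p = 0.144; 1.01, adjusted p = 0.0688). The Itga1 call was also lost when a lead of 1 marker over other lineages was enough (-1.29, adjusted p = 0.068).

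Some calls of Ddr1, Ddr2 and Itga2 in these comparisons depended on the scaling. Itga2 in tendon-like cells did not pass, but it did with DESeq2 (1.70, adjusted p = 0.0353) and without composition scaling (2.02, adjusted p = 0.0177). Ddr2 fell by 1.20 ± 0.39 in tendon-like against chondrocyte-like cells (adjusted p = 0.0304), but the call was lost without replicate 2 (-0.93, adjusted p = 0.254), without replicate 3 (-1.16, adjusted p = 0.209), with a lead of only 1 marker over other lineages (-0.97, adjusted p = 0.0794), with RLE scaling (-0.95, adjusted p = 0.0875) and without composition scaling (-0.63, adjusted p = 0.308). Ddr1 had a log2 fold change of 1.04 in CAR-like cells (adjusted p = 0.0713) and passed with RLE scaling (1.23, adjusted p = 0.027), with DESeq2 (1.20, adjusted p = 0.0387) and without composition scaling (1.57, adjusted p = 0.00696). In osteoblast-like cells Ddr1 did not pass, but it did with no low-count filter (-1.72, adjusted p = 0.0154) and without replicate 1 (-1.41, adjusted p = 0.0172). Although every CAR-like library had more Ddr2 CPM than every chondrocyte-like one, the TMM-scaled fold change was 0.29 ± 0.34 (adjusted p = 0.55). The shares of all genes that rose and fell were 8.19% and 15.5% for tendon-like, 16.3% and 21.7% for CAR-like and 11.6% and 21.5% for osteoblast-like cells. With RLE scaling, 51.5% of the called genes of the tendon-like and 50.9% of those of the osteoblast-like comparison were higher, in place of 34.6% and 35.1%. Without composition scaling it was 71.4% for tendon-like and 71.8% for CAR-like cells (42.9% with TMM). Against osteoblast-like cells it was 76.8% for tendon-like and 79.2% for CAR-like cells without that scaling, in place of 52.3% and 58.3%, and for superficial-like against growth-plate-like cells 38.3% in place of 52.2%.

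**Figure D3:**
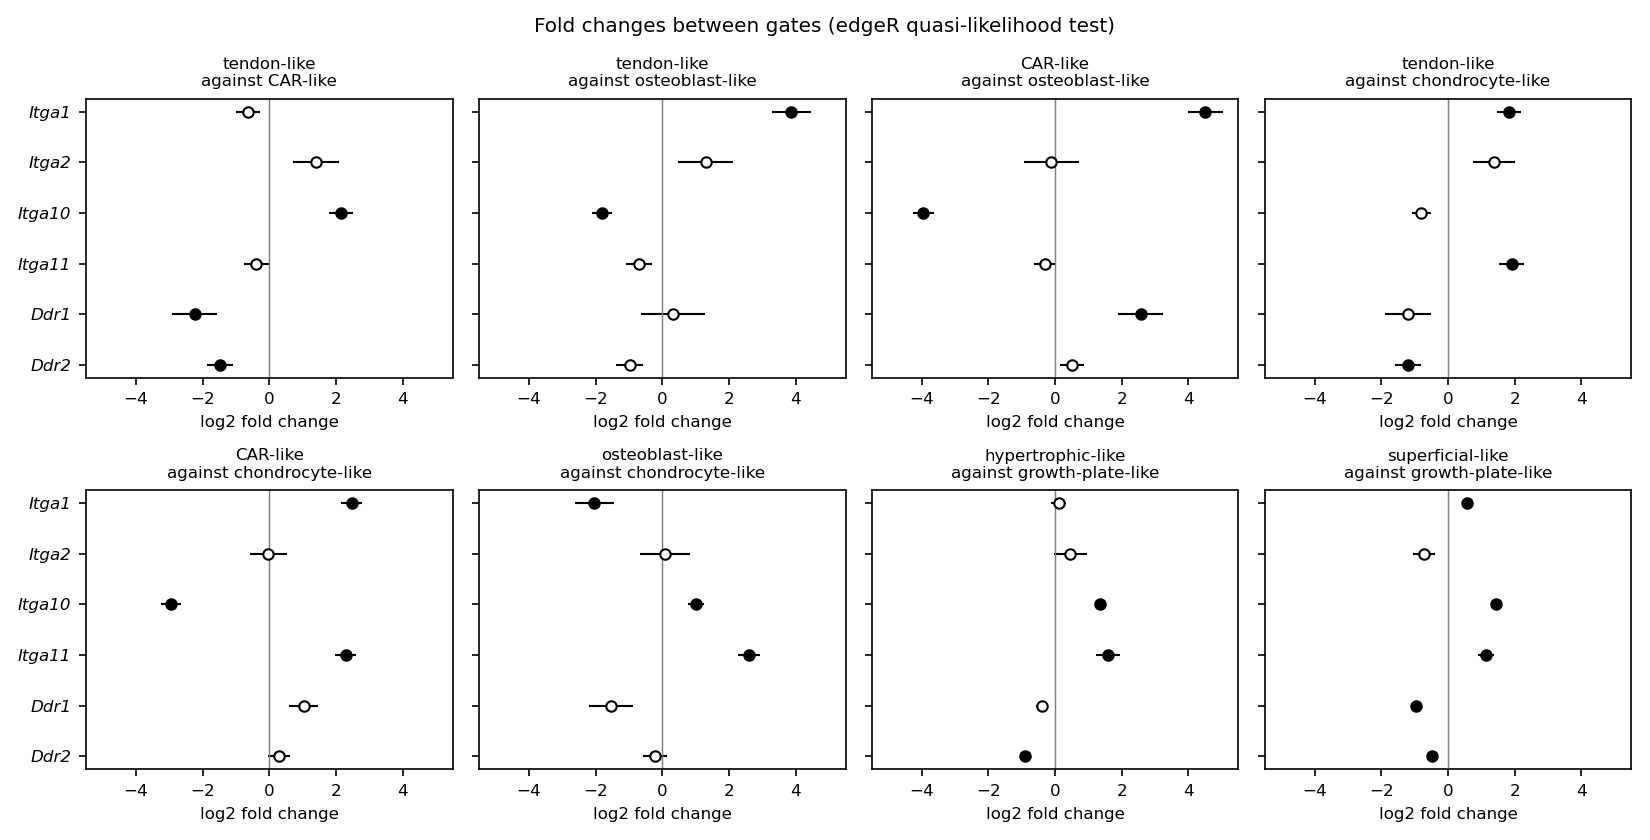
Log2 fold change (horizontal axis) of each receptor in the 8 comparisons, first-named cells over second-named cells, with its SE; filled points have an adjusted p under 0.05 in edgeR's quasi-likelihood test. Itga10 goes from -3.95 in CAR-like against osteoblast-like cells to 2.15 in tendon-like against CAR-like cells.

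Transcripts of other lineages were present in the cells compared. In tendon-like cells the 8 CAR markers summed to 95.1 to 174 CPM and the 8 chondrocyte markers to 618 to 1771 CPM, beside 26626 to 34608 and 9297 to 18656 CPM in their own lineages, and Ptprc was at 0. Fibroblast markers reached 1315 to 2155 CPM in tendon-like cells, with 7 of the 8 seen. In fibroblast-like cells themselves, replicate 1 alone, they summed to 3258 CPM. In osteoblast-like cells the chondrocyte markers summed to 212 to 700 CPM with 8 of 8 seen and the CAR markers to 118 to 224 CPM with 7 of 8. In CAR-like cells the osteoblast markers summed to 244 to 608 CPM and the chondrocyte markers to 145 to 1181 CPM, with 8 of 8 seen for both. The part of these transcripts in the receptor levels was not tested.

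Within the cartilage, the 14096 chondrocyte-like cells were split by 6 further markers per state, again without a receptor or collagen. Growth-plate-like cells (Ucma, Prkg2, Epyc) numbered 1212 and 1303 in replicates 2 and 3 and only 15 in replicate 1, which did not enter. Superficial-like cells (Prg4, Cilp, Abi3bp) numbered 412, 2914 and 4717, and hypertrophic-like cells (Ibsp, Alpl, Panx3) 24, 180 and 283. The state names mean no more than these marker rules. Of the hypertrophic-like cells 393 of 487 lay at the limit of the rule, as did 1356 of 2530 growth-plate-like cells. The median depth was 12650 UMIs in growth-plate-like, 6555 in superficial-like and 6710 in hypertrophic-like cells, and its part in the differences between states was not tested beyond the thinned shares given below. The hypertrophic markers summed to 3059 to 13298 CPM in superficial-like cells and 1006 to 1170 CPM in growth-plate-like cells, with 6 of 6 seen in both. The growth-plate markers summed to 306 to 3887 CPM in hypertrophic-like and 385 to 2024 CPM in superficial-like cells, beside 5895 to 6018 CPM in their own state. The part of these transcripts in the receptor levels was not tested.

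Growth-plate-like cells had less Itga10 and Itga11 than superficial-like and hypertrophic-like cells, and more Ddr2. Itga10 stood at 35.2 and 39.1 CPM in replicates 2 and 3 of growth-plate-like cells, at 92.7, 89.5 and 82.3 CPM in hypertrophic-like cells and at 54.6, 92.0 and 90.2 CPM in superficial-like cells. Every hypertrophic-like and superficial-like library was above both growth-plate-like ones. The 15 growth-plate-like cells of replicate 1, too few for the rule, gave 51.7 CPM (22.3 to 102) from 8 UMIs, 5 of them in 1 cell. That is close to the 54.6 CPM of superficial-like cells in replicate 1. Relative to growth-plate-like cells, Itga10 rose by 1.33 ± 0.13 in hypertrophic-like cells (adjusted p = 4.0e-06) and by 1.44 ± 0.11 in superficial-like cells (adjusted p = 2.4e-08). Among cells with at least 2000 UMIs, thinned to that depth, 8.46% and 8.78% of growth-plate-like cells had an Itga10 UMI. In hypertrophic-like cells it was 15.9% to 22.7% and in superficial-like cells 9.95% to 17.3%.

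Itga11 had 4.42 and 4.62 CPM in growth-plate-like cells and 9.27, 9.12 and 9.42 CPM in superficial-like cells, and rose by 1.14 ± 0.23 (adjusted p = 0.00062). In hypertrophic-like cells it had 51.0, 12.7 and 9.03 CPM and rose by 1.59 ± 0.36 (adjusted p = 0.00401), and the first of these values comes from 11 UMIs in 24 cells. The same 24 cells had Col1a1 at 14870 CPM, the highest of the hypertrophic-like libraries, the lowest being 1558 CPM. Col1a1 rose by 5.46 in hypertrophic-like against growth-plate-like cells (adjusted p = 0.00043), with means of 6905 and 113 CPM. Whether osteoblast transcripts took part in the Itga10 and Itga11 rises of this state was not tested. Itga1 rose by 0.58 ± 0.13 in superficial-like cells (adjusted p = 0.00131), where it stood at 38.8, 22.7 and 19.8 CPM, against 18.3 and 13.7 CPM in growth-plate-like cells. Itga2 did not pass in hypertrophic-like (0.46, adjusted p = 0.537) or superficial-like cells (-0.71, adjusted p = 0.0739). In superficial-like cells it passed with no low-count filter (-0.77, adjusted p = 0.00456), at least 4 markers (-0.64, adjusted p = 0.0273), no composition scaling (-0.88, adjusted p = 0.0424) and without replicate 1 (-0.61, adjusted p = 0.0355).

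Ddr2 ran the other way, with 214 and 216 CPM in growth-plate-like cells, 97.4, 103 and 123 CPM in hypertrophic-like and 144, 132 and 135 CPM in superficial-like cells. The groups did not overlap, and Ddr2 fell by 0.90 ± 0.16 (adjusted p = 0.00055) and by 0.49 ± 0.15 (adjusted p = 0.0101). Thinned shares of cells with Ddr2 were 35.5% and 34.3% in growth-plate-like, 17.6% to 22.3% in hypertrophic-like and 20.8% to 23.6% in superficial-like cells. Ddr1 had 26.4 and 24.9 CPM in growth-plate-like cells and 5.84, 12.5 and 11.1 CPM in superficial-like cells, and fell by 0.95 ± 0.11 (adjusted p = 2.8e-06). In hypertrophic-like cells its log2 fold change of -0.41 did not pass (adjusted p = 0.109).

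Of all 11901 genes tested, 14.4% rose and 12.8% fell in hypertrophic-like cells, beside 2 and 1 of the 6 receptors. In superficial-like cells 29.5% rose and 27% fell, beside 3 and 2, so calls there were common. Without replicate 2 or 3 the growth-plate-like cells are a single library, assumed to vary like the other states. The 8 state calls of the receptors then lost significance, except Itga10 in superficial-like cells without replicate 3. Without replicate 2 the Itga10 values were 1.24 (adjusted p = 0.133) in hypertrophic-like and 1.17 (adjusted p = 0.0773) in superficial-like cells. Ddr2 had -0.92 (adjusted p = 0.439) and -0.44 (adjusted p = 0.797), and Ddr1 had -0.99 (adjusted p = 0.28) in superficial-like cells. Itga11 had 1.61 (adjusted p = 0.281) and 0.81 (adjusted p = 0.603), and Itga1 in superficial-like cells 0.70 (adjusted p = 0.56). Without replicate 3, Itga10, Itga11 and Ddr2 had 1.42 (adjusted p = 0.0671), 1.91 (adjusted p = 0.0799) and -1.20 (adjusted p = 0.193) in hypertrophic-like cells. In superficial-like cells Itga11, Itga1, Ddr1 and Ddr2 then had 0.86 (adjusted p = 0.498), 0.52 (adjusted p = 0.70), -0.96 (adjusted p = 0.279) and -0.54 (adjusted p = 0.703). DESeq2 did not call Itga11 in superficial-like cells (0.97, adjusted p = 0.122).

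Cycling cells (91 and 90 in replicates 2 and 3) and Wnt-active cells (32 and 61) were not tested. Of all cycling cells 108 of 181 lay at the limit of the marker rule, and of the Wnt-active cells 94 of 97. Cycling cells had 46.4 and 44.4 CPM of Itga10 and 177 and 186 CPM of Ddr2. Wnt-active cells had 41.2 and 58.9 CPM of Itga10, 222 and 189 CPM of Ddr2 and 24.7 and 31.0 CPM of Ddr1, and no Itga2 UMI. Of these states, Ddr2 in Wnt-active cells overlapped growth-plate-like cells.

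**Figure D4:**
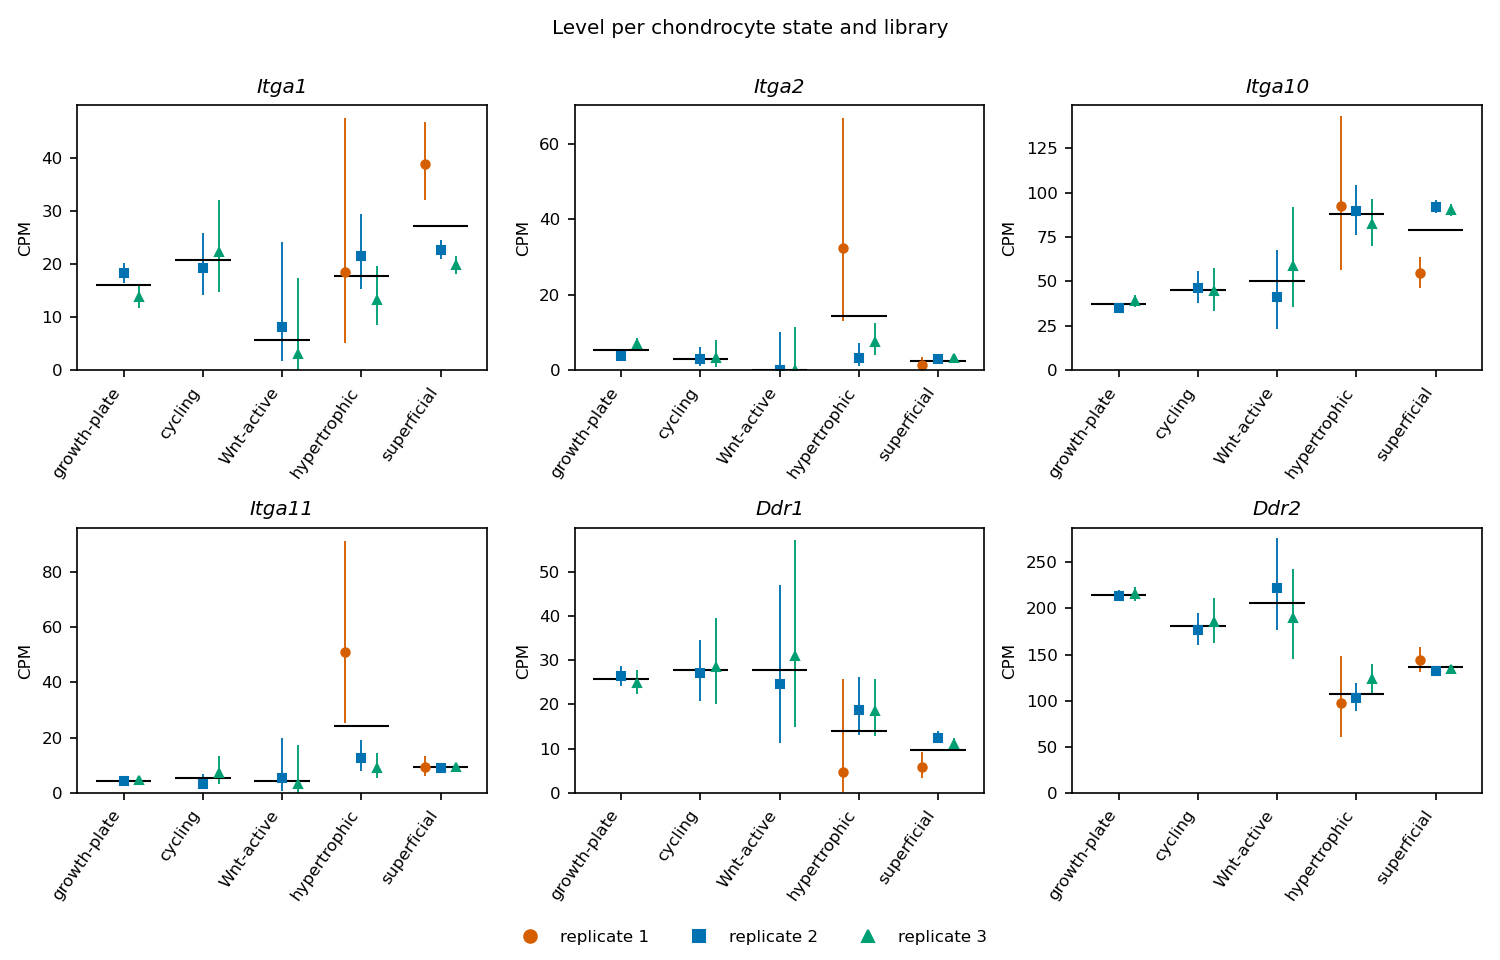
CPM of each receptor (vertical axis, linear) in the chondrocyte states with at least 20 cells, 1 point per library with its 95% Poisson interval and the mean as a black line. Itga10 is lowest in growth-plate-like cells (35.2 and 39.1 CPM), where Ddr2 stands at 214 and 216 CPM.

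The integrins need Itgb1, which was seen in every lineage. It had means of 713 ± 117 CPM in tendon-like, 559 ± 8.7 in CAR-like, 320 ± 75.6 in osteoblast-like and 260 ± 7.6 in chondrocyte-like cells (SD, n = 3). It rose in tendon-like cells against osteoblast-like (0.77, adjusted p = 0.0129) and chondrocyte-like cells (0.88, adjusted p = 0.0031), and in CAR-like against chondrocyte-like cells (0.57, adjusted p = 0.0253). The list of Itgb1 and its cytoplasmic partners held 22 genes, of which 21 were tested. Against osteoblast-like cells 5 rose and none fell in both tendon-like and CAR-like cells, with median log2 fold changes of 0.22 and 0.57, beside 0.01 and 0.17 over all genes. Among all genes tested, 8.21% rose and 7.5% fell in tendon-like and 12.5% and 8.98% in CAR-like cells. Against CAR-like cells 1 rose and 3 fell in tendon-like cells (median -0.32, all genes -0.16), beside 6.97% and 9.24% of all genes. Tln2, a talin that links integrins to actin, stood out by size, at 279 ± 99.8 CPM in CAR-like, 16.9 ± 3.5 in tendon-like, 11.8 ± 10.2 in osteoblast-like and 40.8 in chondrocyte-like cells. It fell by 4.09 in tendon-like against CAR-like cells (adjusted p = 8.34e-08) and rose by 4.51 in CAR-like against osteoblast-like cells (adjusted p = 1.6e-08). Vcl, the vinculin gene, rose by 1.84 in tendon-like against osteoblast-like cells (adjusted p = 0.000494).

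The same list against chondrocyte-like cells gave 1 gene higher and 6 lower in tendon-like, 5 and 5 in CAR-like, and 1 and 8 in osteoblast-like cells (medians -0.46, -0.04 and -0.63, all genes -0.32, -0.16 and -0.36). Among all genes, 8.19% and 15.5% were higher and lower in tendon-like, 16.3% and 21.7% in CAR-like and 11.6% and 21.5% in osteoblast-like cells. Cav1, the main protein of caveolae, fell in all 3. It had 60.4 CPM in chondrocyte-like cells, and the log2 fold changes were -2.24 in tendon-like (adjusted p = 0.00129) and -4.61 in CAR-like cells (adjusted p = 2.58e-07), while osteoblast-like cells had 2 UMIs of it in all. Lims2, a partner of the kinase Ilk, had no UMI in the tendon-like sums, at least 7.58-fold lower when taking a floor of 3 UMIs over the lineage. In the states, 1 rose and 4 fell in hypertrophic-like and 4 rose and 7 fell in superficial-like cells (medians 0.03 and 0.08, all genes 0.01 and 0.01). Among all genes, 14.4% rose and 12.8% fell in hypertrophic-like and 29.5% and 27% in superficial-like cells. Ptk2b, a focal adhesion kinase relative, had log2 fold changes of -1.28 and -2.71 (adjusted p = 0.0283 and 2.73e-07).

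Of the 6 other collagen receptors in the list, 5 were tested between lineages. Mrc2, which takes up collagen for breakdown, stood at 190 ± 20.6 CPM in osteoblast-like and 190 ± 12.6 in tendon-like cells, and at 59.8 ± 33.9 in CAR-like and 42.6 ± 3.3 in chondrocyte-like cells. It rose in tendon-like and osteoblast-like against chondrocyte-like cells (1.56, adjusted p = 0.0012, and 2.05, adjusted p = 4.24e-05) and fell by 2.01 in CAR-like against osteoblast-like cells (adjusted p = 0.00018). Cd44 rose by 2.18 in tendon-like against CAR-like cells (adjusted p = 8.92e-05) and fell by 1.64 in superficial-like against growth-plate-like cells (adjusted p = 1.19e-06). Cd36 had 55 UMIs in CAR-like cells and none in osteoblast-like or tendon-like cells, at least 5.47-fold and 3.16-fold higher by the same floor. In the 6 lineage comparisons in the order given, 3, 0, 1, 2, 2 and 1 of the 5 rose and 1, 0, 2, 0, 1 and 0 fell, and the medians were 1.53, 0.27, 0.24, 0.02, 0.04 and -1.68. Among all genes, 6.97%, 8.21%, 12.5%, 8.19%, 16.3% and 11.6% rose and 9.24%, 7.5%, 8.98%, 15.5%, 21.7% and 21.5% fell. The medians of all genes were -0.16, 0.01, 0.17, -0.32, -0.16 and -0.36. In both state comparisons Mrc2 rose and Cd44 fell, the 2 genes of the list tested there (medians -0.36 and -0.30). There 14.4% and 29.5% of all genes rose and 12.8% and 27% fell.

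The collagens that these receptors bind, and Clec11a, known as an alpha11 ligand, made a list of 17 genes. The collagen I genes Col1a1 and Col1a2 fell by 4.51 and 3.54 in tendon-like against osteoblast-like cells (adjusted p = 0.00184 and 0.000167). Col1a1 had 90612 ± 37830 CPM in osteoblast-like, 5659 ± 3210 in tendon-like, 730 ± 872 in CAR-like and 894 ± 445 in chondrocyte-like cells. Col4a1, a collagen IV chain, had 642 ± 123 CPM in CAR-like and 415 ± 143 in tendon-like cells, where Itga1 was also high, and 6.53 and 19.1 CPM in osteoblast-like and chondrocyte-like cells. It rose by 7.27 and 6.61 in CAR-like and tendon-like against osteoblast-like cells (adjusted p = 1.07e-07 and 8.74e-07), the latter having 4 UMIs. Col2a1, the cartilage collagen, had 1602 CPM in chondrocyte-like cells of the library where it was lowest and 29982 CPM where it was highest. It was also found at 1.69 to 426 CPM in leukocyte-like cells, which should lack it, at 14.2 to 1530.5 CPM in CAR-like and at 12.3 to 1198 CPM in tendon-like cells. The part of free RNA in these levels was not tested.

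In counts, 10 of the 17 ligand genes rose and 0 fell in tendon-like against CAR-like cells (median 1.59, all genes -0.16), beside 6.97% and 9.24% of all genes. Against osteoblast-like cells 5 rose and 6 fell in tendon-like and 4 rose and 7 fell in CAR-like cells (medians -0.89 and -0.94, all genes 0.01 and 0.17). Among all genes, 8.21% rose and 7.5% fell in tendon-like and 12.5% and 8.98% in CAR-like cells. Against chondrocyte-like cells 3 rose and 4 fell in tendon-like, 2 rose and 10 fell in CAR-like and 5 rose and 9 fell in osteoblast-like cells (medians -0.21, -1.36 and -2.11, all genes -0.32, -0.16 and -0.36). There 8.19%, 16.3% and 11.6% of all genes rose and 15.5%, 21.7% and 21.5% fell. In hypertrophic-like cells 9 rose and 0 fell and in superficial-like cells 8 rose and 5 fell (medians 0.74 and 0.52, all genes 0.01 and 0.01). Among all genes, 14.4% and 29.5% rose and 12.8% and 27% fell in these states. Col10a1, the collagen of hypertrophic cartilage, rose by 5.09 in superficial-like against growth-plate-like cells (adjusted p = 5.75e-08), from 14.1 to 461 CPM.

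The 8 alpha subunits that bind other ligands made the last list. Itga8, an RGD-binding subunit, stood at 120 ± 33.8 CPM in tendon-like cells and at 7.3, 1.1 and 5.2 CPM in CAR-like, osteoblast-like and chondrocyte-like cells. It rose by 3.89 in tendon-like against CAR-like and by 3.88 against chondrocyte-like cells (adjusted p = 5.49e-06 and 7.26e-07). The paper found Kera, Tnmd, Mfap4, Chodl and Ptx4, all tendon-like markers here, enriched in the same cluster as Itga8 in these libraries. The choice of markers therefore favoured a rise of Itga8 in tendon-like cells, and its p-values are no independent evidence. Itga8 is also among the risen genes counted next. In tendon-like cells 2, 3 and 3 of the 8 rose and 1, 0 and 4 fell against CAR-like, osteoblast-like and chondrocyte-like cells (medians -0.95, 0.04 and -1.31, all genes -0.16, 0.01 and -0.32). There 6.97%, 8.21% and 8.19% of all genes rose and 9.24%, 7.5% and 15.5% fell. In CAR-like cells 2 and 1 rose and 0 and 3 fell against osteoblast-like and chondrocyte-like cells (medians 1.01 and -0.29, all genes 0.17 and -0.16). In osteoblast-like against chondrocyte-like cells 0 rose and 5 fell (median -2.41, all genes -0.36). Among all genes, 12.5%, 16.3% and 11.6% rose and 8.98%, 21.7% and 21.5% fell in these comparisons. Itga9, known for binding tenascin, rose by 2.77 in CAR-like against chondrocyte-like cells (adjusted p = 4.49e-06). In the states 0 rose and 1 fell, and 3 rose and 2 fell, of the 7 tested (medians -0.03 and -0.17, all genes 0.01 and 0.01). Among all genes, 14.4% and 29.5% rose and 12.8% and 27% fell there.

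Genes whose levels were most like each receptor's were sought over the 21 lineage sums, by Pearson's r of log2(CPM + 5) among 11443 genes with a mean of at least 5 CPM. The marker genes of lineages and states and the receptors themselves were left out of these. The sums share libraries and differ in depth, so r is a description with no p. For Itga2, the Schwann-like sum of replicate 1 stood at 140 CPM and the next, fibroblast-like cells, at 35.3 CPM. How far that single sum sets the r values of Itga2 was not tested. For Itga1 these were Tmx3 (0.941), Lnpep (0.901) and Ralgapa1 (0.896), and for Itga2 Cnksr2 (0.914), Tmod2 (0.898) and Fez1 (0.897). For Itga10 they were Ccn4 (0.949), Ptgis (0.942) and Zbtb7c (0.940), and for Itga11 Ptprd (0.982), Cdh11 (0.972) and Flrt2 (0.968). For Ddr1 they were Dclk1 (0.927), Tmem88 (0.920) and Klhl13 (0.903), and for Ddr2 Shox2 (0.957), Crtap (0.954) and Sobp (0.948).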

How the data were processed

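Per the labels, 3 libraries of sorted mouse bone-lining cells were made with a 3′ kit (version 3.1). The authors aligned reads to mm10 and counted UMIs with Cell Ranger 7.1.0, giving unnormalized UMI counts, deposited as 3 matrices of 32285 genes and together 20307 barcodes. Barcodes under 200 genes or over 20% mitochondrial UMIs were dropped. Scrublet's own threshold (scanpy 1.11.5) marked 42, 1 and 0 cells, so the highest scores were removed instead, a share that grew with the number of cells in the library (51, 362 and 837 cells). Libraries shared 5, 9 and 28 barcodes in pairs. The study's own clusters were not used here: cells were assigned by markers, and counts summed per lineage and library with at least 20 cells. edgeR 4.0.16 (quasi-likelihood, TMM, filterByExpr) tested the sums with the library as a block, since all sums of a library come from the same sample; DESeq2 1.42.0 was an alternative. The tests were checked on simulated sums drawn from a shared mean profile, apart from a set of changed genes. That check did not cover differences in composition, so it cannot speak to the scaling. Whether introns were counted is not given in the sources used here. The receptors and gene lists were chosen with earlier results of these data known. Named genes were the receptors, the 3 genes most like each and, from the lists, some of the 2 called with the largest change in each direction; Itgb1 outside tendon-like against chondrocyte-like cells was added after its values were seen, as was the fit without composition scaling. Coordinates are from GENCODE M21. All 6 receptors passed the low-count filter.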

Additional observations from a re-analysis of the deposited data

How the results depend on the processing

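Each comparison was refitted with RLE scaling, DESeq2, no low-count filter, no replicate block, at least 4 markers per cell, a smaller lead over other lineages, no cell filter, no doublet removal, and each library left out; the fit without composition scaling was chosen after seeing the data. Of the refitted fold changes of the 6 receptors, 496 kept their direction and their side of the threshold, 15 passed it newly, 32 no longer passed and 27 changed sign. None of the 27 passed the threshold, and the cause was not tested. Without the replicate block, 1807 genes were called in hypertrophic-like against growth-plate-like cells in place of 3236, and no receptor call changed.

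With one library left out, the called genes ranged from 868 to 1958 for tendon-like against CAR-like (2030 with all), 741 to 2319 for tendon-like against osteoblast-like (1969), 1118 to 3053 for CAR-like against osteoblast-like (2696), 1344 to 2943 for tendon-like against chondrocyte-like (2968), 2872 to 4440 for CAR-like against chondrocyte-like (4753), 1923 to 4734 for osteoblast-like against chondrocyte-like (4154), 375 to 3554 for hypertrophic-like against growth-plate-like (3236) and 1006 to 7337 for superficial-like against growth-plate-like cells (6722). The low ends came without replicate 2 or 3.

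The log2 fold changes that changed sign were mostly of Itga2. In CAR-like against chondrocyte-like cells it was 0.17 with DESeq2, 0.15 with RLE, 0.063 with at least 4 markers, 0.043 with no cell filter, 0.58 without composition scaling, 0.38 without the replicate block, and 0.27 and 0.23 without replicates 2 and 3. In CAR-like against osteoblast-like cells it was 0.37 without composition scaling, 0.0066 with no low-count filter, 0.29 without the block, 0.15 with the smaller lead, and 0.53 and 0.11 without replicates 2 and 3. It was -0.54 in hypertrophic-like cells with at least 4 markers, and -0.11 with no low-count filter, -0.25 with the smaller lead and from -0.26 to 0.12 with one library left out in osteoblast-like against chondrocyte-like cells. Itga1 in hypertrophic-like cells was -0.0077 with no low-count filter, -0.016 with the smaller lead, and from -0.16 to 0.19 with one library left out. Ddr1 in tendon-like against osteoblast-like cells was -0.53 with the smaller lead and from -0.35 to 1.67 with one library left out, Ddr2 in osteoblast-like against chondrocyte-like cells 0.060 with DESeq2 and 0.065 with RLE, and Itga11 in CAR-like against osteoblast-like cells 0.094 without composition scaling.

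The planned comparison of fibroblast-like with tendon-like cells was not run, since only replicate 1 held 20 fibroblast-like cells. Receptors with under 10 UMIs in a lineage (Itga1, Itga2 and Ddr1 in osteoblast-like, Ddr1 in tendon-like cells) are limited by depth.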
